A study of Mus musculus with 6 samples.

Results

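Hepcidin and iron handling in mouse liver was followed through 10 genes, compared between adult and young male mice. The genes were taken by name from the authors' deposited gene table, where each had 1 row among 32597: the hepcidin genes Hamp and Hamp2, the transferrin receptors Tfrc and Tfr2, the iron exporter Slc40a1, the hepcidin inducer Bmp6, its signalling targets Id1 and Smad7, transferrin (Trf) and the ferritin heavy chain (Fth1). The adult group was 3 libraries from livers of 6-month wild type C57BL/6 males, and the young group 3 libraries from wild type C57BL/6 males labelled 3 weeks in the sample titles, 3 to 4 weeks in the age field and 1 month in the series title. Each library pooled RNA of 3 mice, no animal was treated, and C57BL/6 is an inbred laboratory strain.

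Hepcidin is a small peptide hormone that hepatocytes release into the blood. It binds ferroportin, the only known cellular iron exporter, which is then degraded, so that iron stays inside gut cells, macrophages and hepatocytes. Hepatocytes raise hepcidin transcription when sinusoidal endothelial cells supply BMP6 and BMP2, which act through SMAD proteins, and during inflammation, when interleukin 6 acts through STAT3; erythroferrone from red cell precursors lowers it. Mice carry a pair of hepcidin genes where humans have a single one, and in mice overexpression of Hamp, but not of Hamp2, is known to lower body iron.

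The hepcidin genes lie next to each other on the minus strand of chromosome 7 in GRCm38, Hamp at chr7:30942371-30944017 and Hamp2 at chr7:30922372-30924181, with 18189 bases between them. Their upstream sequences are shown because the genes are near copies whose levels fell by different amounts in adult liver. Whether the sequences have a part in those amounts was not tested. The 250 bases before each RefSeq start site (build GRCm38.p6, minus strand) are printed 5′ to 3′, with capitals marking matches to GGCGCC, the core of the BMP-responsive element, and to TTCNNNGAA, the general STAT site. The Hamp window is chr7:30944030-30944279 and the Hamp2 window is chr7:30924182-30924431.
Hamp: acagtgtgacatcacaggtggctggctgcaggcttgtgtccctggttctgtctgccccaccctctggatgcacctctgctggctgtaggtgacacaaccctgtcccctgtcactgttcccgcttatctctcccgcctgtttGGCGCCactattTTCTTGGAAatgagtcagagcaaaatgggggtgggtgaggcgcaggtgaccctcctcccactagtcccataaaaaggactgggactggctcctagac
Hamp2: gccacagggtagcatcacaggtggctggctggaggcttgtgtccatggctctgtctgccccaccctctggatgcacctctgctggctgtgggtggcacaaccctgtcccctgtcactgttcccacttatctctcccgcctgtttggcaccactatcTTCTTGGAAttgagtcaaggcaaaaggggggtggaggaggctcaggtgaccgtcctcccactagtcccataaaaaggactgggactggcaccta

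The windows aligned without a gap over 247 bases, of which 227 (91.9%) were identical and 20 were substituted. A STAT match stood in both, at positions -97 to -89 before the start site in Hamp and -94 to -86 in Hamp2. The GGCGCC match, at -109 to -104, stood in Hamp and not at the aligned place in Hamp2. The difference there was a single substitution, G106A, written with the Hamp base first, its position counted upstream from the Hamp start site, and then the Hamp2 base. The short windows below give that place, with capitals on the bases of the Hamp match (chr7:30944126-30944145, minus strand) and on those aligned with them in Hamp2 (chr7:30924275-30924294, minus strand).
Hamp: cctgtttGGCGCCactattt
Hamp2: cctgtttGGCACCactatct

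Of the 10 members, 6 had upstream windows in the RefSeq table, 10 windows in all. On either strand, GGCGCC was in the windows of 2 of these genes, Hamp and Tfrc, and in 9.59% of all 32851 windows. TTCNNNGAA was in 2 genes, Hamp and Hamp2, and in 7.02% of all windows, and the E-box CACGTG was in Bmp6 and in 6.02% of all windows. No match overlapped another. A match is a string of letters and was not tested for binding here.

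All levels below are FPKM, fragments scaled to transcript length and library size, so levels can be set side by side between genes. How the libraries were scaled to each other is not stated. The authors deposited 1 FPKM value per gene and age, so no value per library, standard deviation or test between libraries could be had, and the depth behind each value is unknown. "Rose" and "fell" describe adult liver relative to young liver and are used for genes whose q was under 0.05 in the authors' deposited table, which comes from their own test over the 3 libraries of each age. Folds are log2((adult FPKM + 1)/(young FPKM + 1)), a scale that understates the change of low genes. Among 11741 genes that the authors tested and that reached 1 FPKM at either age, 7.47% were called, with 3.99% risen and 3.48% fallen, and the median log2 fold was 0.0033. The labels do not say whether the pools of an age were housed or processed apart, so q measures only the spread between these pools.

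The hepcidin genes fell in adult liver, and Hamp2 fell far more in size than Hamp. Hamp2 was at 29.7 FPKM in adult liver and 463 FPKM in young liver. Its adult level was 6.42% of the young one, a log2 fold of -3.92, with q = 0.00189 in the authors' deposited table. Hamp was at 288 FPKM in adult liver and 473 FPKM in young liver. Its adult level was 60.9% of the young one, a log2 fold of -0.71, with q = 0.0154 in the authors' deposited table. This q passes a threshold of 0.05 and does not pass 0.01. The difference between the 2 falls was not tested, because no value per library was available.

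Hamp2 was the member with the largest change. Among the 408 genes that fell, it had the fourth-largest fall on the log2 scale (rank 4), and Hamp stood at rank 201. In the order of levels over the genes compared, Hamp2 was at rank 2367 in adult liver and at rank 193 in young liver, and Hamp at rank 331 in adult liver and rank 185 in young liver.

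**Figure D1:**
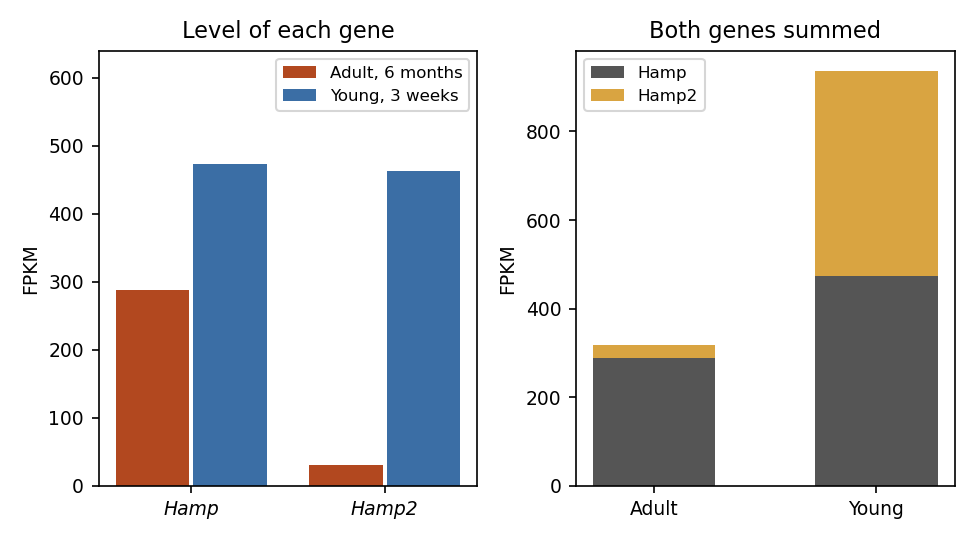
Levels of the hepcidin genes in FPKM (vertical axes, from 0), each bar the authors' single value per age, so there are no error bars. The left panel shows each gene in adult and young liver, where Hamp2 has 29.7 FPKM in adult and 463 FPKM in young liver, and the right panel stacks the genes, with totals of 318 FPKM in adult and 936 FPKM in young liver.

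The makeup of hepcidin RNA differed between the ages. Hamp2 made up 9.36% of the summed FPKM of the pair in adult liver and 49.5% in young liver. Hamp exceeded Hamp2 by 9.68-fold in adult liver and by 1.02-fold in young liver. The pair together came to 318 FPKM in adult liver and 936 FPKM in young liver, a log2 fold of -1.56, and Hamp2 accounted for 70.1% of that difference in FPKM. The authors' table gives no test for a sum.

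The split of reads between the hepcidin genes carries an uncertainty of its own. The main transcripts of Hamp (410 bases) and Hamp2 (420 bases) in GENCODE M21 matched at 94.6% of 410 aligned bases, and the longest stretch they shared without a difference was 87 bases. The labels do not state how reads that fit both genes were assigned. A sum over the pair removes an uneven split between them, but not the effect of shared reads that were dropped or counted for both.

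Among the genes around the pair, no fall was called. Of 12 other genes within 100 kb of Hamp, 5 were compared, of which 1 rose and 0 fell (3.99% and 3.48% over all genes compared). Usf2, a transcription factor gene on the same strand whose 3′ end lies just upstream of Hamp, was at 37.3 FPKM in adult liver and 38.1 FPKM in young liver (q = 0.997 in the authors' deposited table). Lsr, a lipoprotein receptor gene, was at 58.1 FPKM in adult liver and 77.0 FPKM in young liver and was not called (q = 0.300 in that table). Gm17077, an antisense RNA gene that overlaps Usf2 and Lsr, was at 8.45 FPKM in adult and 8.54 FPKM in young liver. Its reads cannot be told from theirs unless strand was used, which is not stated. Fam187b was at 2.47 FPKM in adult and 3.13 FPKM in young liver and was not called. Fxyd5, which encodes a regulator of the sodium pump, rose to 9.84 FPKM in adult liver, against 4.203 FPKM in young liver (q = 0.00189 in the authors' deposited table). The other 7 genes, Ffar3, Ffar1, Cd22, Mag, Gm4673, Mir7050 and Fxyd7, were under 1 FPKM at both ages.

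**Figure D2:**
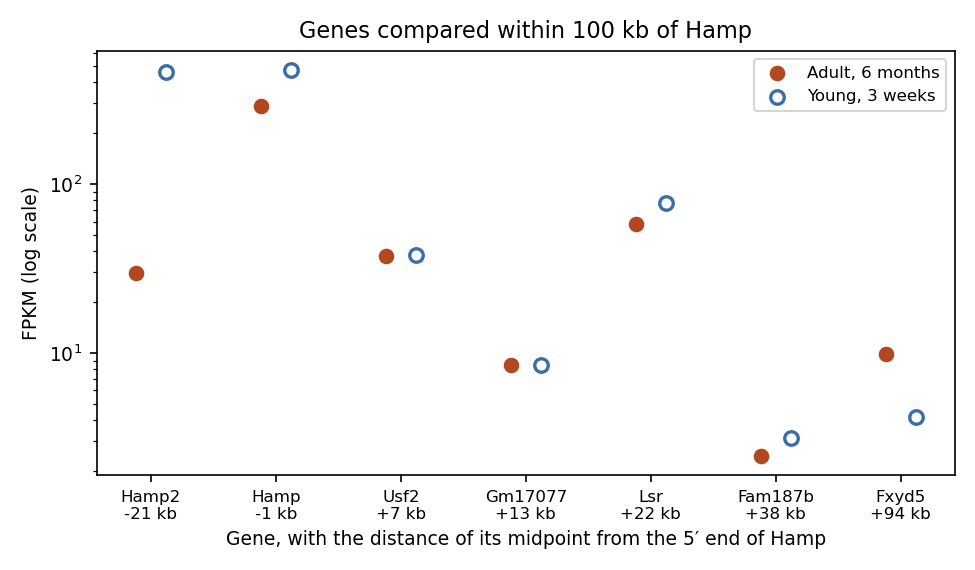
FPKM (vertical log axis) of the 7 genes compared within 100 kb of Hamp, ordered along chromosome 7, with the distance of each gene's midpoint from the 5′ end of Hamp in kb, positive toward higher coordinates. Filled points are adult and open points young liver, 1 value each: the points of Usf2 and Gm17077 nearly coincide, and those of Hamp2 lie farthest apart.

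By distance over both log2(FPKM + 1) values, the genes nearest to Hamp were Sc5d, a cholesterol synthesis enzyme, at 304 FPKM in adult and 466 FPKM in young liver, Calr, a chaperone of the endoplasmic reticulum, at 309.7 FPKM in adult and 461 FPKM in young liver, and Apof, an apolipoprotein, at 324 FPKM in adult and 483 FPKM in young liver. Their distances were 0.079, 0.112 and 0.172 on the log2 scale. Hamp2 had no gene that close. Its nearest was the alpha-globin gene Hba-a1, at 50.2 FPKM in adult and 277 FPKM in young liver, at a distance of 1.04. The P450 gene Cyp2c40 followed at a distance of 1.43, with 11.9 FPKM in adult and 287 FPKM in young liver, and the fatty acid omega-hydroxylase gene Cyp4a14 at 1.47, with 39.5 FPKM in adult and 173 FPKM in young liver. With 2 ages, such a likeness compares only 2 values per gene.

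Over all members, 3 of the 9 that reached 1 FPKM fell and 0 rose in the Cuffdiff test of the authors' deposited table, beside 3.48% fallen and 3.99% risen among all genes compared; the members were chosen with earlier results known. At an unadjusted p under 0.05 in that table, 3 members were lower and 1, Tfrc, was higher in adult liver. The median log2 fold of the 9 was -0.23, against 0.0033 over all genes compared and -0.21 over the 7 hepatocyte markers compared. Bmp6, the tenth member, was tested by the authors and stayed under 1 FPKM at both ages. In both ages the order of levels began with Trf, Fth1 and Hamp and ended with Tfrc, Id1, Smad7 and Bmp6. Between them stood Tfr2, Slc40a1 and Hamp2 in adult liver, and Hamp2, Tfr2 and Slc40a1 in young liver. With no spread between libraries, it could not be said which neighbours in this order differ.

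**Figure D3:**
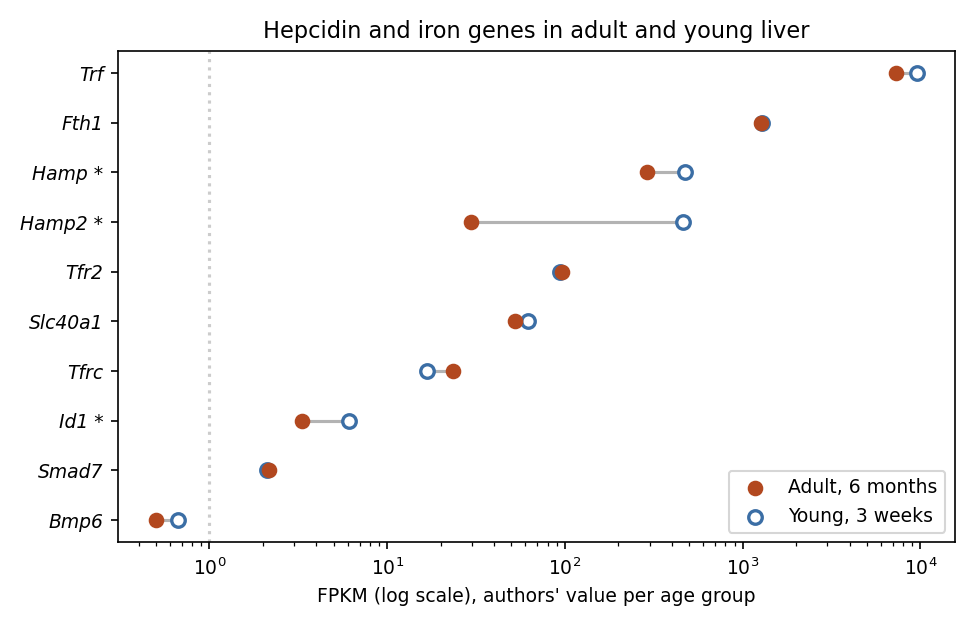
Levels of the 10 members in FPKM (horizontal log axis), with filled points for adult and open points for young liver, 1 authors' value each, ordered by the young level. Asterisks mark Hamp, Hamp2 and Id1, which were called; the line between points is long for Hamp2, and the dotted line marks 1 FPKM.

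Of the upstream signal, the ligand Bmp6 (chr13:38345716-38499728, plus strand) was at 0.4995 FPKM in adult liver and 0.669 FPKM in young liver. It was not called (q = 0.653 in the authors' deposited table). Id1 (chr2:152736251-152737410, plus strand), a helix-loop-helix inhibitor whose transcription BMP-SMAD signals raise, fell to 3.30 FPKM in adult liver, against 6.10 FPKM in young liver. Its log2 fold was -0.72, and q was 0.0035 in the authors' deposited table. Smad7 (chr18:75367529-75395935, plus strand), an inhibitory SMAD that is also induced by this signal, was at 2.17 FPKM in adult liver and 2.12 FPKM in young liver, with q = 0.997 in that table. The BMP targets Id1 and Smad7 stood on different sides of the threshold, and the difference between them was not tested.

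The whole BMP-SMAD list holds ligands, receptors, co-receptors, SMADs and targets, among them the members Bmp6, Tfr2, Id1 and Smad7. Of its 22 genes compared, 2 fell, Id1 and Smad9, and 0 rose in the Cuffdiff test of the authors' deposited table (3.48% and 3.99% over all genes), and the median log2 fold was -0.06. At an unadjusted p under 0.05 in that table, 4 were lower and 0 higher. Smad9, which encodes a BMP-activated SMAD, fell to 0.641 FPKM in adult liver, against 1.47 FPKM in young liver (q = 0.00189 in the authors' deposited table). It passed the minimum only through the young value, so it could only be lower in adult liver. The following were named after their values were seen, as the core of this pathway. Hjv, listed as Hfe2 and encoding the BMP co-receptor hemojuvelin, was at 24.8 FPKM in adult liver and 32.7 FPKM in young liver (q = 0.149 in that table). Tmprss6, a protease that cleaves hemojuvelin, was at 115 FPKM in adult liver and 127 FPKM in young liver. Hfe, the hemochromatosis gene, was at 30.0 FPKM in adult liver and 27.9 FPKM in young liver. Bmp2, the other endothelial ligand, was at 2.52 FPKM in adult liver and 3.15 FPKM in young liver. None of the last 3 was called. The gene of erythroferrone, listed as Fam132b, was at 0.0373 FPKM in adult and 0.0351 FPKM in young liver and was not tested by the authors. Since erythroferrone comes from red cell precursors, RNA of liver does not show what is made outside the liver.

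Markers of sinusoidal endothelium, the source of BMP ligands, moved in the same direction in part. Of 10 such markers, 2 fell and 0 rose, beside 3.48% and 3.99% of all genes compared, and 9 had a fold below 0. Their median log2 fold was -0.25, and their summed level was 107 FPKM in adult liver and 128 FPKM in young liver. Lyve1, a hyaluronan receptor, fell to 3.47 FPKM in adult liver, against 6.44 FPKM in young liver, and the liver protein gene Oit3 fell to 6.82 FPKM, against 11.3 FPKM in young liver (q = 0.00189 for each in the authors' deposited table). Their part in the levels of Bmp6 or Id1 was not tested. In RNA of whole liver, fewer cells of a type and less RNA per cell cannot be told apart.

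Of the 9 genes compared in the interleukin 6 and STAT3 list, 1 rose and 0 fell (3.99% and 3.48% over all genes compared). The median log2 fold was 0.08. Socs3, the feedback inhibitor of this pathway and itself a STAT3 target, rose to 6.03 FPKM in adult liver, against 1.57 FPKM in young liver. Its log2 fold was 1.45 and q was 0.00189 in the authors' deposited table. Hamp and Socs3, both known STAT3 targets, moved in opposite directions between the ages. The part of STAT3 in either change was not tested. Il6 itself was at 0.0916 FPKM in adult and 0.0774 FPKM in young liver; it and Stat3, at 28.4 FPKM in adult and 26.8 FPKM in young liver, were named after their values were seen.

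**Figure D4:**
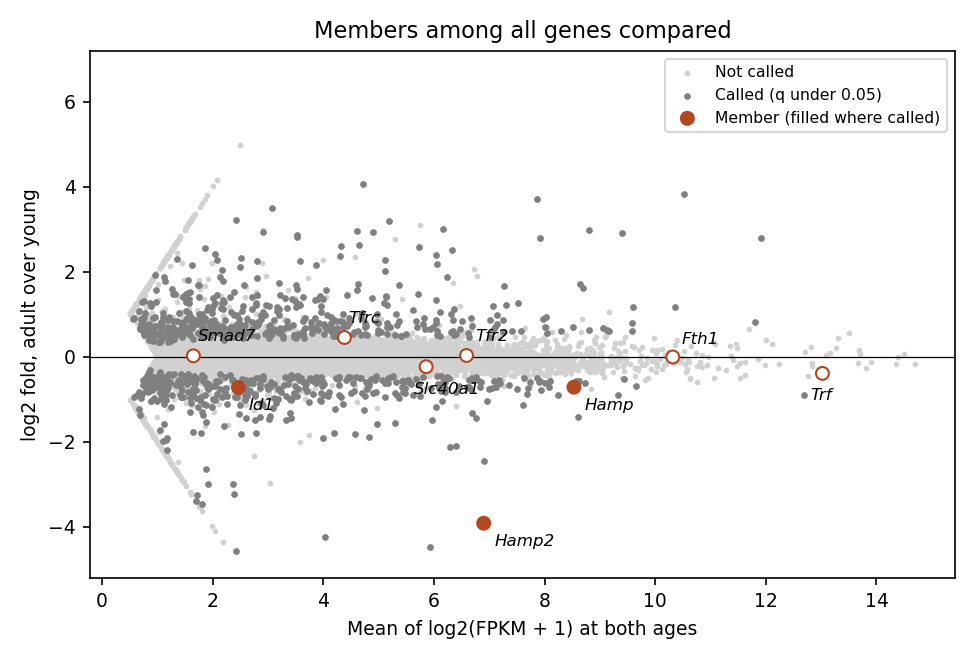
Log2 fold of adult over young liver (vertical axis) against the mean of log2(FPKM + 1) at both ages (horizontal axis) for 11741 genes, with called genes in dark grey. The 9 members compared are circled, filled where called: Hamp2 lies at -3.92, Hamp at -0.71 and Id1 at -0.72, while the other 6 lie between -0.39 and 0.45.

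Of the genes that bring iron into cells, transferrin was the most abundant member. Trf (chr9:103204001-103230444, minus strand), the plasma protein that carries iron, was at 7267 FPKM in adult liver and 9526 FPKM in young liver. This was 0.949% of all FPKM in adult liver and 1.25% in young liver, and it was not called (q = 0.825 in the authors' deposited table). The row of Gm20425, a protein-coding model on the same strand that overlaps Trf, was at 11.8 FPKM in adult and 15.0 FPKM in young liver. Tfrc (chr16:32608920-32632794, plus strand), the receptor that takes up iron-loaded transferrin, was at 23.4 FPKM in adult liver and 16.8 FPKM in young liver. Its log2 fold of 0.45 came with p = 0.00605 and q = 0.0910 in the authors' deposited table, so it was not called. Tfr2 (chr5:137569851-137587481, plus strand), a second receptor that senses transferrin in hepatocytes, was at 96.4 FPKM in adult liver and 94.3 FPKM in young liver (q = 0.997 in that table). Tfr2 exceeded Tfrc by 4.11-fold in adult liver and by 5.60-fold in young liver.

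The authors' error differed among the members. The log2 fold divided by the test statistic of the authors' deposited table grows with the error behind a fold. It was 0.683 for Trf, 0.613 for Smad7 and 0.517 for Bmp6, and lay between 0.269 and 0.398 for the other 7, where 0.386 was the median of all genes compared. Trf had the widest error of the members despite the highest level, and its adult level, 76.3% of the young one, did not pass the test.

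In the list of iron uptake genes, 12 were compared, of which 3 rose and 1 fell (3.99% and 3.48% over all genes compared). The median log2 fold was 0.05. Scara5, a scavenger receptor that takes up ferritin, rose to 3.17 FPKM in adult liver, against 0.373 FPKM in young liver; with its young value under 1 FPKM it could only be higher in adult liver. Lcn2, a secreted protein that binds iron carriers of bacteria and is made in the acute phase response, rose to 46.5 FPKM in adult liver, against 17.3 FPKM in young liver. The called metalloreductases went in opposite directions. Steap4 rose to 79.1 FPKM in adult liver, against 48.4 FPKM in young liver. Steap2 fell to 1.95 FPKM in adult liver, against 3.87 FPKM in young liver. The q-value was 0.00189 for each of these 4 genes in the authors' deposited table. Steap3, another metalloreductase, was at 6.65 FPKM in adult liver and 8.97 FPKM in young liver and was not called (q = 0.178 in that table). Over the list, 4 genes were higher and 3 lower in adult liver at an unadjusted p under 0.05 in that table.

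Iron export and storage showed no calls among the genes compared. Slc40a1 (chr1:45908068-45926523, minus strand), the gene of ferroportin, was at 52.6 FPKM in adult liver and 61.9 FPKM in young liver (q = 0.593 in the authors' deposited table). Fth1 (chr19:9982703-9985092, plus strand), the ferritin subunit that oxidizes iron for storage, was at 1274 FPKM in adult liver and 1278 FPKM in young liver, with q = 0.998 in that table. Ftl1, the light chain of ferritin, was at 1241 FPKM in adult liver and 1368 FPKM in young liver, so Fth1 stood at 1.03 times Ftl1 in adult and 0.934 times in young liver. Ferritin genes have processed copies in the genome that can share reads with them. Cp, the plasma ferroxidase ceruloplasmin, was at 986 FPKM in adult liver and 1076 FPKM in young liver. In the Cuffdiff test of the authors' deposited table, 0 of 2 export genes and 0 of 5 storage genes were called. The share called over all genes compared was 7.47%. Of either list, 0 passed an unadjusted p under 0.05. Heph, a membrane ferroxidase, was under the minimum at both ages, at 0.288 FPKM in adult and 0.603 FPKM in young liver, with q = 0.0123 in that table.

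Iron regulatory proteins bind hairpins in several of these messages, blocking translation from the 5′ end and slowing decay from the 3′ end. The hairpins are shown because they separate Fth1 and Slc40a1 from Tfrc by their place. Transcripts of GENCODE M21 (GRCm38) were searched on the sense strand for a C, 5 bases, CAGTGN with N other than G, and 5 bases that pair with the first 5. A hairpin that departs from this pattern would be missed, and a match was not tested for binding. A match was found in 3 members, in 1.01% of 21877 genes with a protein-coding transcript, and in 3 other listed genes, Ftl1, Alas2 and Bola3. Each is given with 4 flanking bases on either side, with the loop in capitals: Fth1 in the 5′ UTR at chr19:9982734-9982758 (plus strand), Slc40a1 in the 5′ UTR at chr1:45925467-45925491 (minus strand), and the first of 4 in the 3′ UTR of Tfrc at chr16:32631221-32631245 (plus strand).
Fth1: cctgcttcaaCAGTGCttgaacgga
Slc40a1: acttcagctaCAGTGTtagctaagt
Tfrc: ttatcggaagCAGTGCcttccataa

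None of the 3 members with the hairpin was called, beside 7.47% of all genes compared, a share at which 0 of 3 is the usual outcome. The genes of the proteins that bind it and of the pathway that removes them were also not called. Of 7 genes in the list of iron regulatory proteins and sensing, 0 passed q under 0.05 in the Cuffdiff test of the authors' deposited table. That list also holds the transcription factor genes Epas1 and Hif1a, which belong to neither group. Hif1a was the 1 gene of the list that was higher at an unadjusted p under 0.05. Aco1, which encodes such a binding protein, was at 57.6 FPKM in adult liver and 69.0 FPKM in young liver, and Skp1a, part of the ubiquitin ligase that degrades the other one, at 282 FPKM in adult and 249 FPKM in young liver. Of 17 mitochondrial iron and iron-sulfur cluster genes, 0 were called, beside the same 7.47%, and 0 passed an unadjusted p under 0.05. Their median log2 fold was -0.04. The highest of them by the mean of both ages were Cisd1, at 119 FPKM in adult liver and 133 FPKM in young liver, and Bola3, at 98.9 FPKM in adult liver and 109.7 FPKM in young liver. Iscu, the scaffold protein for cluster assembly, was above Bola3 in adult liver, at 103 FPKM in adult and 84.8 FPKM in young liver.

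Of 10 genes for the uptake and breakdown of heme and hemoglobin, 2 rose and 0 fell (3.99% and 3.48% over all genes compared). The median log2 fold was 0.29. Hmox1, the heme oxygenase that frees iron from heme, rose to 19.6 FPKM in adult liver, against 11.8 FPKM in young liver (q = 0.00189 in the authors' deposited table). Blvrb, a biliverdin reductase, rose to 130.4 FPKM in adult liver, against 79.2 FPKM in young liver (q = 0.00494 in that table). Kupffer cells, the liver macrophages that clear red cells, were followed by 10 markers. Of these markers, 2 rose and 0 fell, against the same shares, with a summed level of 337 FPKM in adult and 302 FPKM in young liver. Their folds were split, 5 above and 5 below 0, with a median log2 fold of 0.08. The scavenger receptor Marco rose to 25.5 FPKM in adult liver, against 13.8 FPKM in young liver, and Cd5l, a macrophage-secreted protein, to 96.7 FPKM, against 63.9 FPKM in young liver. Clec4f, a lectin specific to Kupffer cells, was at 57.7 FPKM in adult liver and 79.6 FPKM in young liver and was not called (q = 0.291 in the authors' deposited table). Their part in the rise of Hmox1 was not tested.

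**Figure D5:**
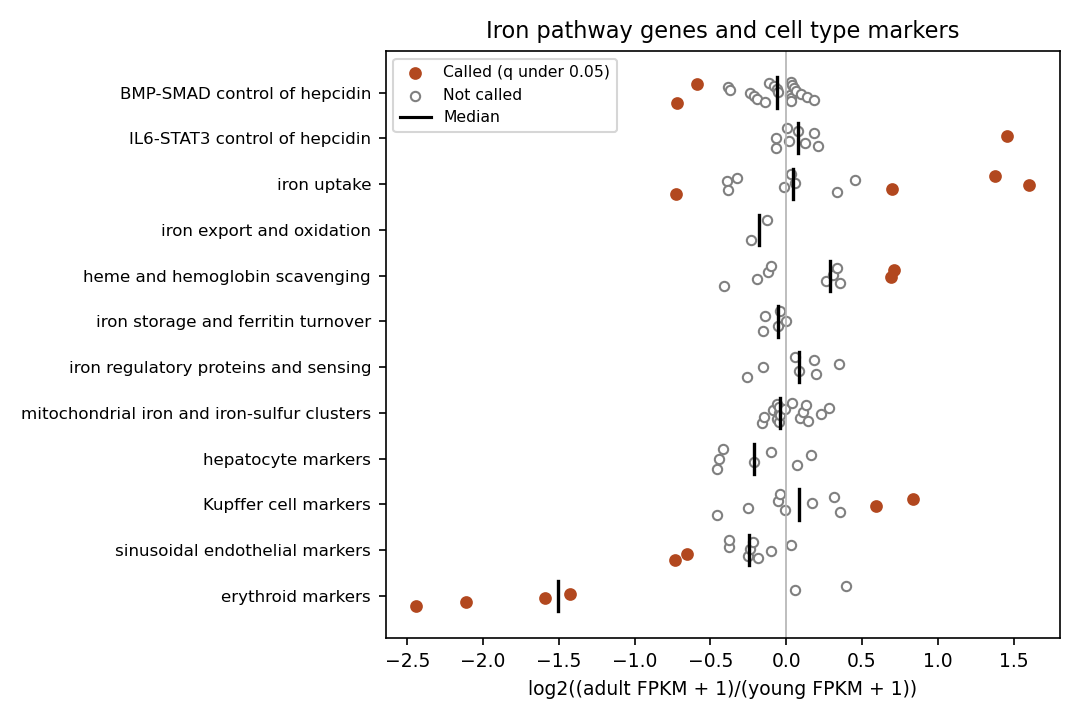
Log2 fold of adult over young liver (horizontal axis) for the genes compared in 8 iron pathway lists and 4 marker lists, 1 point per gene, filled where called, with the median of each list as a bar. Most iron genes lie near 0, while Socs3, Scara5 and Lcn2 lie above 1 and the erythroid globins below -1.

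Red cell genes, which mark blood and any precursors left in the liver, fell in part. Of 6 erythroid markers compared, 4 fell, all of them globins, and 0 rose, beside 3.48% fallen and 3.99% risen among all genes compared. The summed level was 414 FPKM in adult liver and 1182 FPKM in young liver. Hba-a1, Hba-a2, Hbb-bs and Hbb-bt had log2 folds of -2.44, -2.11, -1.42 and -1.59, with q = 0.00189 for each in the authors' deposited table. Globin copies can share reads. Of the precursor genes, Klf1 was at 1.10 FPKM in adult and 1.02 FPKM in young liver, Alas2, the erythroid enzyme that starts heme synthesis, at 73.2 FPKM in adult and 55.3 FPKM in young liver, and neither was called. Slc4a1 and Epb42 were under 1 FPKM at both ages. Their part in the fall of hepcidin was not tested.

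Over all 8 pathway lists together, 83 different genes were compared, including 7 members; 6 rose and 3 fell, or 10.8%, against 7.47% of all genes compared. The hepatocyte markers had 0 of 7 called, with 1 lower at an unadjusted p under 0.05, and ranged up to 6800 FPKM in adult and 8081 FPKM in young liver; Ttr was at 5951 FPKM in adult and 8081 FPKM in young liver, and Apoa1 at 6800 FPKM in adult and 7868 FPKM in young liver. The albumin gene is listed at 0 at both ages with the authors' status LOWDATA, so it could not be used to check the tissue.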

How the data were processed

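Total RNA of liver was sequenced in 6 libraries, 3 per age, each a pool of 3 mice. Per the submitters' processing notes, the tools were TopHat2 (2.0.11), Cufflinks (2.2.1) and Cuffdiff, with GRCm38 as the build; the labels state neither annotation release, normalization nor strand settings. The authors deposited 1 FPKM value per gene and age, having combined the libraries. Their p-values and q-values, test score and log2 fold score were also deposited by the authors. Depth is unknown. Of 32597 genes, 16290 had the authors' status OK, and 11741 of these reached 1 FPKM at either age. Folds used a pseudocount of 1 FPKM. Scripts ran in Python 3.11.15 with pandas 2.3.3 and were tested on simulated data. The members and lists were chosen with earlier results of these data known. Named genes were all members, up to 4 called genes per list with the largest fold (the 2 highest where none was called), genes within 100 kb of Hamp, and the 3 nearest in level to Hamp and to Hamp2; highest means by the mean of both ages. Hjv, Tmprss6, Hfe, Bmp2, Fam132b, Il6, Stat3, Heph and Iscu fall outside this rule and were chosen after seeing their values. The same holds for Clec4f, Alas2, Klf1, Slc4a1, Epb42, Epas1, Hif1a, Steap3 and Gm20425. The hairpin search was chosen after the data were seen. Flvcr1, Flvcr2, Ftl2 and Ahsp were not analysed here. Promoters are from RefSeq (GRCm38.p6).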

Additional observations from a re-analysis of the deposited data

How the results depend on the processing

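The folds of the 10 members kept their direction under all 40 alternatives, which were a pseudocount of 0.1, none, scaling to equal FPKM totals, and centring on the median fold. A change of pseudocount cannot turn a fold around. Scaling changed the adult to young ratio by only -0.0073 on the log2 scale, and centring took off 0.0033. The directions were thus all but fixed by the choice of alternatives, and their number is no measure of robustness. Hamp2 ranged from -3.96 to -3.92, Hamp from -0.72 to -0.716 and Id1 from -0.884 to -0.725. At q under 0.01, 2 members fell instead of 3 in the authors' deposited table, since Hamp was lost; a Benjamini-Hochberg adjustment of the authors' p-values gave Hamp 0.0119. With a minimum of 5 FPKM, 1 of the listed iron genes fell instead of 3, because Smad9 and Steap2 are below it. Of 72 alternatives for list medians, 71 moved by less than 0.1. With no minimum, the erythroid median was -0.37 instead of -1.51, because markers under 1 FPKM enter. The Kupffer cell median changed sign, to -0.0059, at a minimum of 5 FPKM. Leaving out libraries was not possible, and no paired value can be given. No paired analysis was possible because the table holds 1 value per age. The unknown depth limits what can be said of genes near 1 FPKM, such as Bmp6.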
